A study of Homo sapiens with 15 samples.

Results

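The respiratory chain of MCF-10A cells was followed through 35 of the 60721 genes in the table: the 13 protein genes of the mitochondrial genome and 22 nuclear genes that encode subunits of complexes I to IV. The genes were taken from a fixed list of names, and all 35 were found and passed the filter on low counts. The contrast of interest is between the genomes, mitochondrial against nuclear, in cells with and without edited NF1.

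The respiratory chain passes electrons from NADH and succinate to oxygen and pumps protons across the inner mitochondrial membrane, and ATP synthase uses the proton gradient to make ATP. Complexes I, III and IV and ATP synthase are built from subunits of both genomes, whereas complex II is wholly nuclear-encoded. Mitochondrial DNA is copied into long transcripts from each strand, which are cut at transfer RNAs into single messages. Most of these messages are given short poly(A) tails. Each nuclear gene has a promoter of its own.

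MCF-10A is a non-tumorigenic human mammary epithelial line. The 5 genotypes, with 3 libraries each, were parental cells, cells with an empty vector, and NF1 mutants made with guide RNA 1, with guide RNA 2, or with guide RNAs 1 and 2 together. NF1 encodes neurofibromin, which lowers RAS signalling. No group was treated, and all were grown at 37°C and 5% CO2 in a phenol red-free DMEM/F12 medium with insulin at 10 ug/mL, cholera toxin at 100 ng/mL, hydrocortisone at 0.5 ug/mL, EGF at 20 ng/mL and horse serum at 10%. The labels do not say whether an edited line is 1 clone or a mixed population. The replicates are labelled as biological, but nothing says that they were separate cultures, so p-values measure the spread between these libraries, which may be partly technical.

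Library totals ranged from 46129559 to 78976917 counts. NF1 lay between 26.0 and 51.3 CPM (counts scaled to a library total of 1000000) in the 9 edited libraries and between 115 and 159 CPM in the 6 unedited ones. All 10 epithelial markers reached 1 CPM in some library, as did 7 of 10 mesenchymal, 2 of 4 endothelial and 1 of 5 blood markers, with CD3E at 0 in every library. The epithelial label was not met evenly. TP63 was at most 0.203 CPM and CDH1 at most 0.158 CPM in the 3 guide 1 libraries and in guide 2 replicates 1 and 3, against 75.8 and 91.4 CPM in guide 2 replicate 2. The summed epithelial markers were 11340 CPM in guide 2 replicate 2 and 2081 and 2229 CPM in replicates 1 and 3. The sum was 6806 CPM in parental replicate 1 and 2519 and 5485 CPM in parental replicates 2 and 3. Of the parental libraries, replicate 2 was the one apart in TP63, at 0.815 CPM against 37.4 and 19.9 CPM in replicates 1 and 3. It was also apart in CDH1, at 1.79 CPM against 42.9 and 37.8 CPM. The epithelial sum was 5898, 6205 and 10930 CPM in empty-vector replicates 1, 2 and 3. In several nuclear respiratory genes, guide 2 replicate 2 and parental replicate 1 stand apart from their genotypes. Some of the values that moved on leaving these 2 libraries out are given both ways. Others moved too, so a value given once is not thereby stable.

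The ends of the mitochondrial genes are shown because they are short of a stop codon in 6 of 13 genes, where the poly(A) tail supplies the missing letters, and because these libraries were made from poly(A) RNA. In GENCODE release 29 on GRCh38, 7 genes end on whole codons, 5 end with 1 base left over and 1 ends with 2. The last 24 bases of 8 genes follow, 5′ to 3′ on the coding strand, with the last codon or the leftover bases in capitals.
MT-ND1 (chrM:4239-4262): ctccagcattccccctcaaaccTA
MT-ND2 (chrM:5488-5511): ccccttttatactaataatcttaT
MT-ND3 (chrM:10381-10404): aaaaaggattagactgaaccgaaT
MT-ND4 (chrM:12114-12137): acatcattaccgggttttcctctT
MT-CO3 (chrM:9967-9990): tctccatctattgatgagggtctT
MT-CYB (chrM:15864-15887): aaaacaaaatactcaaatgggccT
MT-ND5 (chrM:14125-14148): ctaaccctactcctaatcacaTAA
MT-ND6 (chrM:14149-14172, minus strand): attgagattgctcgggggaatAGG

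MT-ND6 is the single protein gene read from the other strand, and MT-ND5 and MT-ND6 meet end to end, so reads near their shared border can be told apart by strand alone. Whether the counting used strand is not given in the sources used here. MT-ATP8 and MT-ATP6 share 46 bases of one message and MT-ND4L and MT-ND4 share 7, so reads in the overlaps cannot be given to 1 gene. The overlap of MT-ATP8 and MT-ATP6 is shown in capitals, from the start codon of MT-ATP6 to the stop codon of MT-ATP8 (chrM:8515-8584).
MT-ATP8 and MT-ATP6: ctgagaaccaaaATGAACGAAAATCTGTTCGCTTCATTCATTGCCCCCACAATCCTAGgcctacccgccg

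Close copies of mitochondrial genes in the nuclear genome could also take or give reads. The highest copies were MTATP6P1 at a mean of 209 CPM (copies of MT-ATP6 summed to 11.2% of the level of MT-ATP6), MTND2P28 at 75.2 CPM (3.34% of MT-ND2) and MTCO1P12 at 32.7 CPM (0.457% of MT-CO1). The copies of each of the other 10 genes summed to less than 0.1% of their parent, the highest of each being MTND1P23, MTND3P25, MTND4P12, MTND4LP30, MTND5P11, MTND6P4, MTCO2P12, MTCO3P12, MTATP8P2 and MTCYBP16.

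Per kilobase of exon, mitochondrial messages stood far above nuclear ones. The mean over 15 libraries had a median of 2160 CPM per kb over the 13 mitochondrial genes, from 627 for MT-ND6 to 5520 for MT-CO2. Over the 22 nuclear genes the median was 57.6 CPM per kb of the principal transcript, from 0.564 for NDUFV2 to 291 for COX4I1, and 25.9 CPM per kb when all annotated exons were merged. Within the mitochondrial genome, the catalytic subunits of cytochrome c oxidase led, with MT-CO2 at 5520, MT-CO1 at 4980 and MT-CO3 at 3580 CPM per kb. Of the 7 membrane subunits of complex I, MT-ND4 was at 2860, MT-ND3 at 2250, MT-ND2 at 2160, MT-ND1 at 1730, MT-ND5 at 1200, MT-ND4L at 1150 and MT-ND6 at 627 CPM per kb. MT-CYB, the cytochrome b of complex III, had 2030 CPM per kb, and the ATP synthase subunits MT-ATP6 and MT-ATP8 had 2740 and 1830 CPM per kb.

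Among nuclear genes, most subunits lay between 22.4 and 282 CPM in every library, with the exception of SDHA and NDUFV2. SDHA, the flavoprotein of complex II that oxidises succinate, was at 4.50 to 6.62 CPM (214 to 474 counts). NDUFV2, an iron-sulphur subunit beside the NADH site of complex I, was at 0.271 to 0.842 CPM (13 to 48 counts). Their partners were far higher: SDHB was at 81.0 to 106 CPM and NDUFV1 at 86.3 to 151 CPM. Near-identical copies of both genes were counted at similar or higher levels, SDHAP4 at 12.3 to 18.3 CPM, SDHAP1 at 7.20 to 8.84 CPM and NDUFV2P1 at 0.354 to 1.23 CPM. The values of SDHA and NDUFV2 are therefore uncertain, since reads shared with a copy may not have been counted for either.

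The summed mitochondrial level was lowest in parental cells and highest in guide 1 cells, with wide spread inside each genotype. The 13 genes summed to 32390, 32210 and 28380 CPM in the empty-vector libraries and to 24290, 25780 and 29400 CPM in the parental ones. They summed to 35190, 39060 and 27630 CPM with guide 1, to 32690, 26740 and 28210 CPM with guide 2, and to 32210, 25700 and 34510 CPM with both guides. Every edited genotype overlapped both controls, and guide 1 by itself spanned most of the range of the series. The bulk libraries cannot tell fewer cells with a high level from less RNA per cell.

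The 22 nuclear genes summed to between 2067 CPM (parental replicate 2) and 2544 CPM (guide 2 replicate 2), a 1.23-fold range, against 1.61-fold for the mitochondrial sum. The ratio of the mitochondrial to the nuclear sum was 13.9, 13.7 and 13.6 in the empty-vector libraries, a spread far narrower than elsewhere. It was 10.6, 12.5 and 14.1 in parental cells, 15.0, 16.1 and 12.7 with guide 1, 15.0, 10.5 and 12.6 with guide 2, and 14.2, 11.3 and 14.5 with both guides. The mean ratios were 13.7 ± 0.167 (empty vector), 12.4 ± 1.75 (parental), 14.6 ± 1.76 (guide 1), 12.7 ± 2.24 (guide 2) and 13.3 ± 1.79 (both guides; SD, n = 3 each). Without parental replicate 1 the parental mean was 13.3, and without guide 2 replicate 2 the guide 2 mean was 13.8. The ratio was not tested because the genes were chosen with results known.

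**Figure D1:**
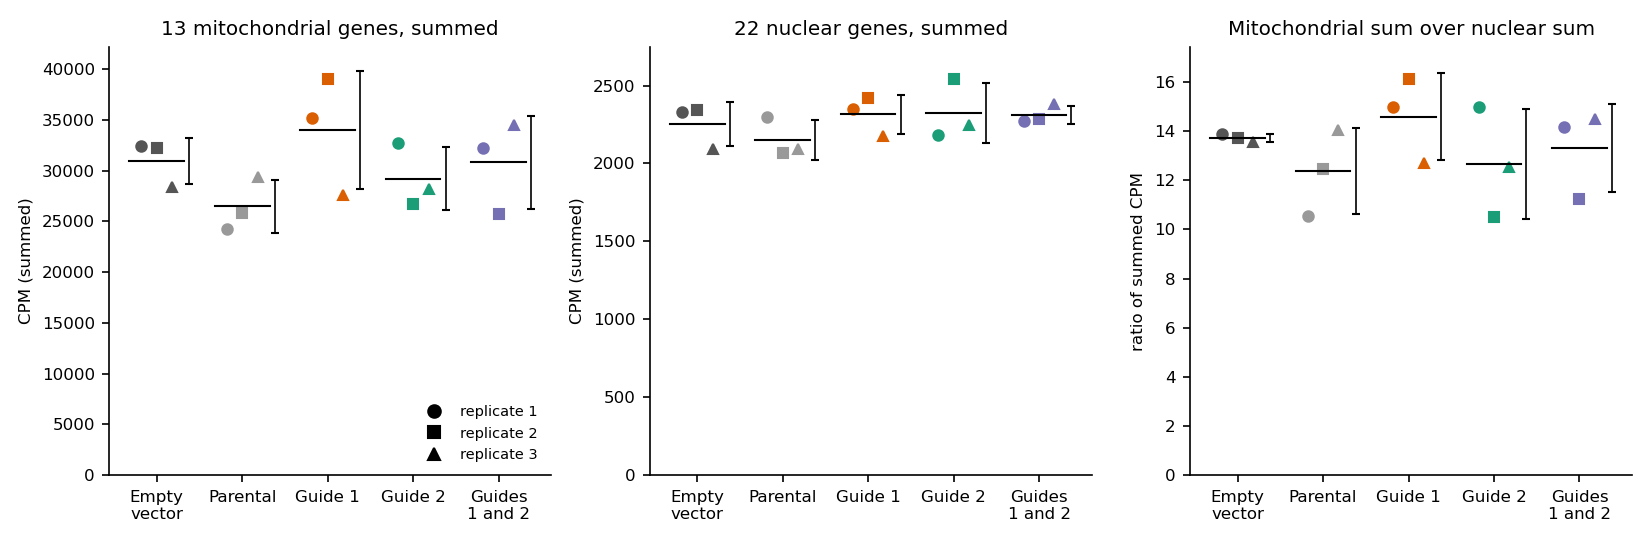
Summed CPM of the 13 mitochondrial genes (left), of the 22 nuclear genes (middle) and their ratio (right) by genotype; points are libraries, horizontal lines are means and bars are 1 SD (n = 3). The mitochondrial sum ran from 24290 to 39060 CPM and overlapped between all genotypes, while the nuclear sum stayed between 2067 and 2544 CPM.

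By complex, the mitochondrial sums were spread more widely than the nuclear sums of the same complex. For complex I the highest library exceeded the lowest 1.57-fold over the 7 mitochondrial subunits and 1.29-fold over the 9 nuclear ones. For complex III the ranges were 1.79-fold (1 gene, MT-CYB) and 1.24-fold (4 genes), and for complex IV 1.65-fold (3 genes) and 1.25-fold (5 genes). The sums thus hold unlike numbers of genes. Single nuclear genes ranged from 1.16-fold (NDUFS1) to 2.34-fold (SDHD), with the thinly counted NDUFV2 at 3.11-fold. Single mitochondrial genes ranged from 1.43-fold (MT-ND3) to 2.11-fold (MT-ND1). The nuclear complex II genes spanned 1.27-fold and the mitochondrial subunits of ATP synthase 1.65-fold. The median within-genotype SD of log2 CPM was 0.21 over the mitochondrial genes and 0.13 over the nuclear ones. It was 0.14 over the 489 tested genes that were at least as abundant as the lowest mitochondrial gene, and 0.25 over all 17457 tested genes. MT-ND3 varied least of the 13 (SD 0.11) and MT-ATP8 most (0.30). Of the 22 nuclear genes, NDUFS1 varied least (0.06) and the thinly counted NDUFV2 most (0.51).

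In some libraries all mitochondrial genes lay to one side of the rest of their genotype. Guide 1 replicate 3 was the lowest of its 3 libraries in 13 of 13 mitochondrial genes, by a median log2 difference of -0.42 from the mean of the other two, and in 16 of 22 nuclear genes, by -0.10. Replicate 2 of both guides was likewise lowest of its 3 in 13 of 13 mitochondrial genes (-0.38) and in 10 of 22 nuclear genes (-0.05). Guide 1 replicate 2 held the highest value of all 15 libraries in 10 of 13 mitochondrial genes, and parental replicate 1 the lowest in 6. All 13 lay above the mean of the other two in guide 1 replicates 1 and 2. In parental replicate 3 and in replicates 1 and 3 of both guides, 12 lay above. In empty-vector replicates 1 and 2, 11 lay above, and in empty-vector replicate 3, 12 lay below. Parental replicates 1 and 2 had 10 and 9 below. The guide 2 libraries were mixed, with 9 above and 4 below in replicate 1, 4 and 9 in replicate 2, and 6 and 7 in replicate 3. Since the genes share transcripts and libraries, counts of mitochondrial genes on one side are not counts of independent observations.

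**Figure D2:**
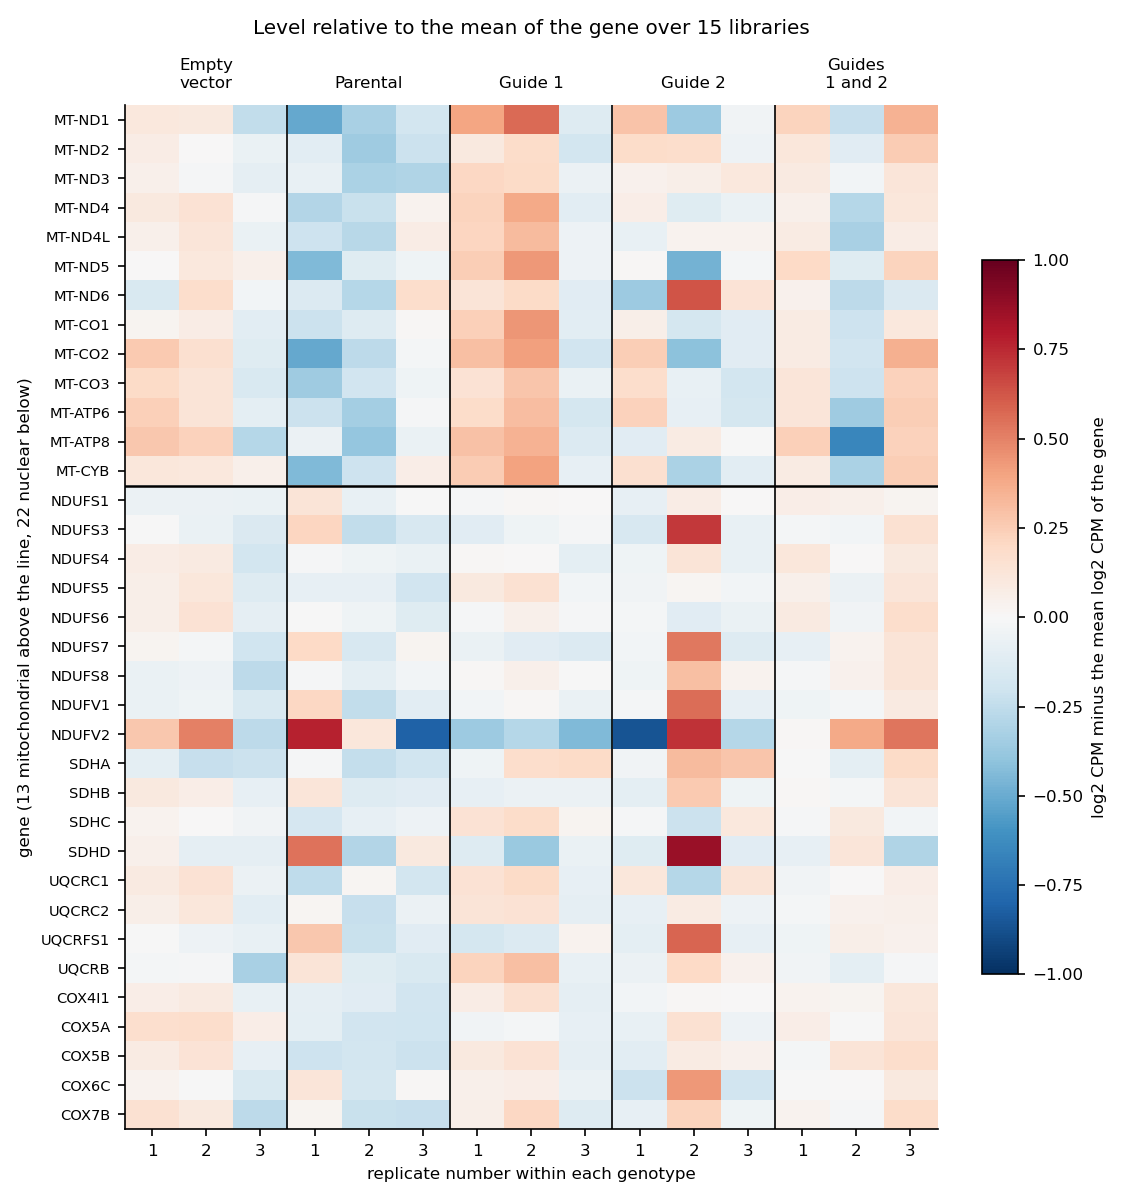
Level of each of the 35 genes in each library, as log2 CPM minus the mean log2 CPM of that gene over the 15 libraries; columns are replicates 1 to 3 of each genotype, and the line separates mitochondrial from nuclear genes. All mitochondrial genes are high in guide 1 replicate 2 and low in replicate 3 relative to their genotype, while SDHD, NDUFS3, NDUFV1 and UQCRFS1 are high in guide 2 replicate 2.

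The comparison of parental with empty-vector cells sets the unedited controls side by side. COX5A, a nuclear subunit of cytochrome c oxidase that joins MT-CO1 early in assembly, was lower in parental cells and was the single gene of the 35 that passed the test in any of the 11 comparisons. COX5A had 122, 123 and 114 CPM in empty-vector libraries and 102, 95.2 and 94.6 CPM in parental ones. The groups did not overlap. The log2 fold change was -0.33 ± 0.07 (SE), with an adjusted p of 0.0200 (edgeR quasi-likelihood test, Benjamini-Hochberg over 17457 genes), and 4.37% of all tested genes were called in this comparison, 2.84% as lower. The call was lost with no filter on low counts (adjusted p = 0.0659), on leaving out empty-vector replicate 1, 2 or 3 (0.0613, 0.0592 and 0.0524), and on leaving out parental replicate 2 or 3 (0.0771 and 0.0908), while the log2 fold change in those settings was between -0.30 and -0.36. The epithelial marker sum was 5898 to 10930 CPM in the empty-vector libraries and 2519 to 6806 CPM in the parental ones, and its part in the result was not tested.

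In the edited lines COX5A had 106, 107 and 103 CPM with guide 1, 103, 121 and 105 CPM with guide 2, and 114, 109 and 118 CPM with both guides. Guide 1 lay below the empty vector without overlap, as did 18.1% of all tested genes, yet did not pass the test (log2 fold change -0.19 ± 0.07, edgeR adjusted p = 0.119). The same contrast passed in limma with voom and sample quality weights (-0.20, adjusted p = 0.000762), and in edgeR without guide 2 replicate 2 (adjusted p = 0.0258). With both that library and parental replicate 1 left out, COX5A passed against the empty vector for guide 1 (edgeR adjusted p = 0.0132) and for guide 2 as well.

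The zinc-binding subunit COX5B was also lowest in parental cells. COX5B had 73.0, 76.0 and 65.4 CPM with the empty vector, 59.9, 60.8 and 59.4 CPM in parental cells, 73.9, 76.5 and 64.9 CPM with guide 1, 64.2, 73.2 and 71.1 CPM with guide 2, and 68.1, 75.6 and 78.0 CPM with both guides. The parental libraries were the lowest 3 of the 15 without overlap with any other genotype. COX5B did not pass in parental against empty vector (log2 fold change -0.28 ± 0.08, edgeR adjusted p = 0.0717), but passed there with DESeq2 and without guide 2 replicate 2 or guide 1 replicate 3. The regulatory subunit COX4I1 had 222 to 238 CPM in parental cells and 241 to 270 CPM with the empty vector (log2 fold change -0.19 ± 0.07, edgeR adjusted p = 0.163). The accessory subunits COX6C and COX7B had log2 fold changes of 0.00 ± 0.14 and -0.17 ± 0.12 in the same comparison.

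The mitochondrial genes were all lower in parental than in empty-vector cells, and none passed the test. Their median log2 fold change was -0.28, from -0.39 for MT-CO2 to -0.11 for MT-ND6, against 0.01 over all tested genes. Of the 13, 1 had an unadjusted p under 0.05 (19.8% of all genes did), and MT-ND2 and MT-ND5 did not overlap between the groups (14.1% of all genes lay lower without overlap). The median stayed between -0.35 and -0.20 on leaving out each library in turn, and was -0.23 without guide 2 replicate 2 and parental replicate 1. The 22 nuclear genes had a median of -0.06, with 14 of 22 below 0, and of them COX5A, COX5B, COX4I1 and the complex II anchor SDHC did not overlap. Without the 2 libraries that stand apart the nuclear median was -0.17 and 21 of 22 were below 0.

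**Figure D3:**
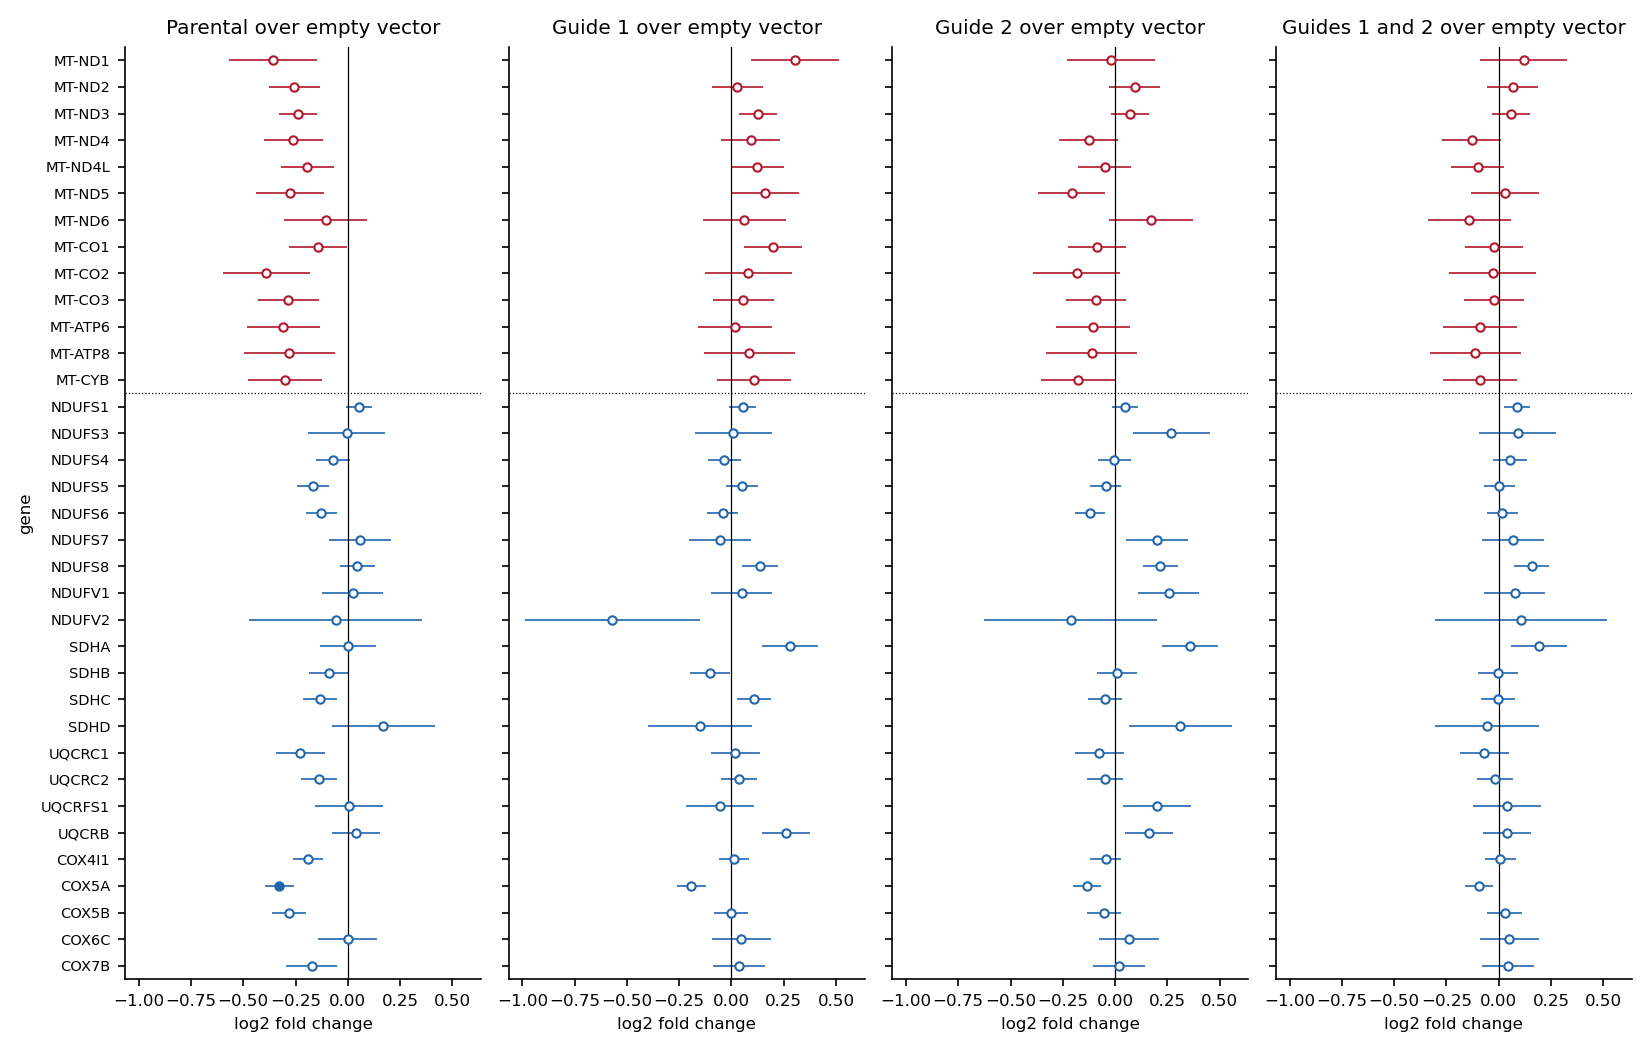
Log2 fold change over the empty vector of each of the 35 genes (red mitochondrial, blue nuclear; bars are 1 SE) in parental cells and the 3 edited lines; filled points have an edgeR adjusted p under 0.05. COX5A in parental cells is the single filled point, and all 13 mitochondrial genes lie left of 0 in parental cells and right of 0 with guide 1.

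Against the empty vector, none of the 35 genes passed in any edited line, where 5.88% (guide 1), 3.94% (guide 2) and 0.962% (both guides) of all tested genes were called. The mitochondrial median log2 fold change was 0.09 with guide 1, -0.09 with guide 2 and -0.03 with both guides, and 13, 3 and 4 of the 13 genes were above 0. Leaving out guide 1 replicate 2 moved the guide 1 median to -0.01, and leaving out guide 1 replicate 3 moved it to 0.23, so its sign rests on single libraries. Leaving out replicate 2 of both guides moved the median of that line to 0.08. The nuclear medians were 0.01, 0.01 and 0.04, and that of guide 2 was -0.08 without guide 2 replicate 2. Without empty-vector replicate 3, the nuclear median of guide 1 was -0.04 and that of both guides -0.03, so these signs rest on single libraries as well. No mitochondrial gene had an unadjusted p under 0.05 in any of the 3 lines, and 2, 2 and 0 nuclear genes did, where 21.4%, 18.9% and 14.0% of all tested genes met that level. Without overlap, NDUFS1, NDUFS8 and SDHA lay higher and COX5A and NDUFV2 lower with guide 1 (18.1% of all genes in each direction). NDUFS8 and SDHA lay higher with guide 2 (12.2%), and NDUFS1 and NDUFS8 with both guides (20.5%).

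Against parental cells the edited lines were higher in nearly every mitochondrial gene, and again none passed. The share of all genes called was 0.149% for guide 1, 0.0516% for guide 2 and 0.195% for both guides. The mitochondrial median log2 fold change was 0.35 with guide 1 (13 of 13 above 0), 0.19 with guide 2 (13 of 13) and 0.22 with both guides (12 of 13), while the medians over all tested genes were -0.01, 0.02 and -0.02. On leaving out 1 library, the guide 2 median fell to 0.07 (without guide 2 replicate 1), and that of both guides ranged from 0.09 (without its replicate 3) to 0.38 (without its replicate 2). The nuclear medians were 0.09, 0.14 and 0.12. The nuclear median of guide 2 was 0.03 without guide 2 replicate 2, and that of guide 1 was 0.17 without parental replicate 1. With guide 1, 10 of 13 mitochondrial and 4 of 22 nuclear genes had an unadjusted p under 0.05, where 19.9% of all tested genes did. With guide 2 the numbers were 2 and 3 (7.37% of all genes), and with both guides 3 and 4 (9.98%). Higher without overlap were 2 mitochondrial and 6 nuclear genes with guide 1 (11.2% of all genes), 2 and 4 with guide 2 (3.83%) and 1 and 6 with both guides (11.6%). COX5A, COX5B, COX4I1 and NDUFS5 were among the nuclear genes in all 3 lines, and MT-ND3 was among the mitochondrial ones. These 3 comparisons share the parental libraries, as the earlier ones share the empty-vector libraries, and so are not independent of each other. Parental cells also had the lowest mean of MALAT1, a nuclear RNA tracked here as a sign of RNA composition, at 988 ± 61.1 CPM against 1256 ± 191 CPM with the empty vector and 1611 to 1827 CPM on average in the edited lines (SD, n = 3), and the part of such a shift in the result was not tested.

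MT-ND3, a small membrane subunit of complex I at chrM:10059-10404, had the lowest p of the mitochondrial genes in each comparison with parental cells. It had 737, 623 and 628 CPM in parental libraries and 801, 767 and 729 CPM with the empty vector. It had 892, 886 and 745 CPM with guide 1, 798, 806 and 831 CPM with guide 2, and 824, 760 and 844 CPM with both guides. The 9 edited libraries were all above the 3 parental ones, while they overlapped the empty vector. The log2 fold change over parental was 0.37 ± 0.09 with guide 1 (edgeR adjusted p = 0.127), 0.31 ± 0.09 with guide 2 (edgeR adjusted p = 0.378) and 0.30 ± 0.09 with both guides (edgeR adjusted p = 0.233). DESeq2 called it with guide 1 (adjusted p = 0.0114), as did limma with voom and sample quality weights (0.51, adjusted p = 2.96e-06) and edgeR without guide 1 replicate 3 (0.00859), without guide 2 replicate 2 (0.0215), and without both guide 2 replicate 2 and parental replicate 1 (0.0109).

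MT-ND1, the subunit where the membrane arm meets the quinone site, had the largest difference over parental with guide 1. It had 2123, 2401 and 1481 CPM with guide 1 and 1137, 1293 and 1424 CPM in parental cells, with a log2 fold change of 0.66 ± 0.21 (edgeR adjusted p = 0.179). The groups did not overlap, with guide 1 replicate 3 nearest to the parental libraries. MT-ND5 was at 2536, 2895 and 2064 CPM with guide 1, which overlapped its parental values of 1580, 1964 and 2077 CPM. MT-CO2, which takes electrons from cytochrome c, had 4565, 4933 and 3254 CPM with guide 1 and 2604, 3102 and 3654 CPM in parental cells, also with overlap. Without guide 1 replicate 3, MT-ND1, MT-ND3, MT-ND4 and MT-CO1 passed the test for guide 1 over parental, and without guide 2 replicate 2 MT-ND1, MT-ND3 and MT-ND5 passed.

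**Figure D4:**
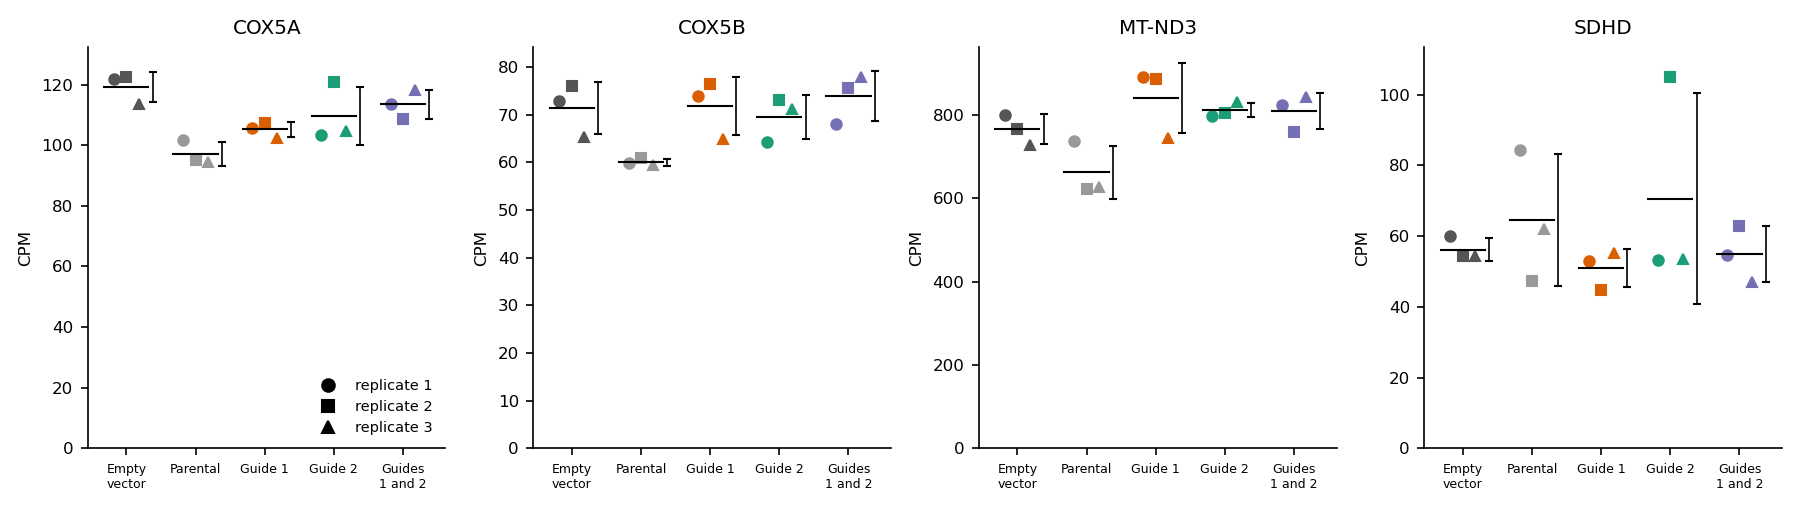
CPM of COX5A, COX5B, MT-ND3 and SDHD by genotype; points are libraries, horizontal lines are means and bars are 1 SD (n = 3). Parental libraries are lowest for COX5B, at 59.4 to 60.8 CPM, and SDHD is high in parental replicate 1 (84.4 CPM) and guide 2 replicate 2 (105 CPM).

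Averaged over the 3 edited lines and set against the average of both controls, 0 of the 35 genes passed, where 1.51% of all tested genes were called. All 13 mitochondrial genes were above 0, with a median log2 difference of 0.10, and 20 of 22 nuclear genes were, with a median of 0.07, against 0.01 over all genes. Leaving out 1 library moved the mitochondrial median to between 0.06 (without guide 1 replicate 2) and 0.16 (without parental replicate 3), and the nuclear median to 0.02 without guide 2 replicate 2. An unadjusted p under 0.05 was reached by 3 mitochondrial and 3 nuclear genes, where 15.8% of all tested genes reached it. MT-ND3 had the lowest p of the mitochondrial genes (log2 difference 0.21 ± 0.06, edgeR adjusted p = 0.113) and passed with DESeq2 (adjusted p = 0.0334), with voom and sample quality weights (limma, 1.77e-05) and without guide 1 replicate 3 (edgeR, 0.0426) or guide 2 replicate 2 (edgeR, 0.0354). SDHA had the lowest p of the nuclear genes (0.28 ± 0.09, edgeR adjusted p = 0.143) and passed with DESeq2 (adjusted p = 0.0436), with voom and sample quality weights (limma, 0.0109) and with edgeR without guide 2 replicate 2 and parental replicate 1 (0.0362). MALAT1 rose in the same contrast (0.60 ± 0.11, edgeR adjusted p = 0.0212), and its part in the mitochondrial values was not tested. The mitochondrial direction depended on the control. Against the empty vector, 13, 3 and 4 of the 13 genes were above 0 with guide 1, guide 2 and both guides. Against parental cells, 13, 13 and 12 were.

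SDHA had 4.97, 4.54 and 4.59 CPM with the empty vector, 5.28, 4.50 and 4.63 CPM in parental cells, 5.17, 6.0 and 6.06 CPM with guide 1, 5.19, 6.62 and 6.45 CPM with guide 2, and 5.31, 4.96 and 6.08 CPM with both guides. Guide 1 and guide 2 lay above the empty vector without overlap (18.1% and 12.2% of all genes did), and both guides overlapped it. The copy SDHAP4 was at 17.8 ± 0.799 CPM with the empty vector and 16.65 ± 1.32 CPM in parental cells. With guide 1, guide 2 and both guides it was at 14.0 ± 0.67, 13.7 ± 1.35 and 13.9 ± 0.792 CPM (SD, n = 3). SDHAP1 had means of 8.39 and 8.06 CPM in those controls and 7.51, 7.64 and 7.42 CPM in the edited lines. SDHAP3 was higher at low level with guide 1 and guide 2 (0.638 and 0.529 CPM, against 0.304 CPM with the empty vector). How reads were divided between SDHA and its copies was not tested.

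The edited lines were not told apart by these genes in the edgeR test, while limma with voom and sample quality weights called some of them. No gene passed between guide 1 and guide 2 (0.0401% of all genes were called), between both guides and guide 1 (0.275%), or between both guides and guide 2 (0.149%). Of the 35 genes, 1 (MT-ND5), 0 and 0 had an unadjusted p under 0.05, where 15.2%, 13% and 5.8% of all genes did. NDUFS6 lay higher without overlap with guide 1 than with guide 2 (6.83% of all genes), NDUFS1, SDHB, NDUFV2 and COX5A with both guides than with guide 1 (15.3%), and COX4I1 with both guides than with guide 2 (6.15%). MT-ND5 was higher with guide 1 than with guide 2 by a log2 difference of 0.37 ± 0.16 (edgeR adjusted p = 0.329), and guide 2 had 2160, 1542 and 2117 CPM, so the 2 lines overlapped. The mitochondrial median was 0.20 for guide 1 over guide 2 and -0.19 for both guides against guide 1. The first ranged from 0.10 (without guide 1 replicate 2) to 0.34 (without guide 1 replicate 3), and the second was -0.02 without replicate 2 of both guides. The nuclear median was -0.03 for guide 1 over guide 2, and 0.03 and 0.01 for both guides against guide 1 and guide 2. Without guide 2 replicate 2, it was 0.05 for guide 1 over guide 2 and 0.09 for both guides against guide 2. The standard error of a mitochondrial gene was 0.16 at the median, and of a nuclear gene 0.10.

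Several nuclear genes of complexes I to IV differed most where single libraries stood apart. SDHD, the small membrane anchor of complex II, had 105 CPM in guide 2 replicate 2 and 84.4 CPM in parental replicate 1, against 44.9 to 62.9 CPM in the other 13 libraries. NDUFV1, which binds NADH, had 151 and 118 CPM in those libraries and 86.3 to 109 CPM elsewhere. NDUFS3, a core subunit of the matrix arm of complex I, had 87.0 and 62.1 CPM against 45.0 to 59.4 CPM elsewhere. UQCRFS1, the Rieske iron-sulphur protein of complex III, had 134 and 107 CPM against 76.3 to 93.0 CPM. The same 2 libraries were the highest and the next highest of the 15 for each of these 4 genes. That order also held for NDUFS7 and for the complex IV gene COX6C. COX6C had 185 and 149 CPM in those libraries, against 117 to 146 CPM elsewhere.

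Guide 2 replicate 2 was the highest of its 3 libraries in 18 of 22 nuclear genes and the lowest in 7 of 13 mitochondrial ones. Parental replicate 1 was the highest of its 3 in 19 of 22 nuclear genes and the lowest in 7 of 13 mitochondrial ones. Not every nuclear gene took part: UQCRC1, a core protein of complex III, was at 184 CPM in guide 2 replicate 2 against 242 and 245 CPM in replicates 1 and 3, and SDHC was at 123 CPM against 142 and 154 CPM. The complex I iron-sulphur subunits NDUFS7 and NDUFS8 were at 37.0 and 60.1 CPM in guide 2 replicate 2 and at 23.4 to 25.1 and 47.4 to 49.9 CPM in the other two, while the accessory subunits NDUFS4, NDUFS5 and NDUFS6 were within 1.14-fold of the mean of the other two. The largest subunit, NDUFS1, was at 183 CPM against 164 and 174 CPM. Counts of this size were also met outside guide 2 replicate 2 and parental replicate 1. Guide 1 replicate 2 was the highest of its 3 libraries in 18 of 22 nuclear genes (median log2 difference 0.09), and replicate 3 of both guides in 17 (0.12). Empty-vector replicate 3, with an epithelial marker sum of 10930 CPM, was the lowest of its 3 in 18 of 22 (-0.13). The medians were 0.19 in guide 2 replicate 2 and 0.20 in parental replicate 1.

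The regulators PPARGC1B and ESRRA, known to drive nuclear respiratory genes, had 53.7 and 83.0 CPM in guide 2 replicate 2, against 9.20 to 9.73 and 37.9 to 41.3 CPM in replicates 1 and 3. In parental replicate 1 they had 34.5 and 55.1 CPM, against 10.0 to 18.9 and 31.3 to 39.1 CPM. PPARGC1A, a related coactivator, lay the other way at low level, with 0.127 CPM in guide 2 replicate 2 (0.49 and 1.1 CPM in replicates 1 and 3) and 0.193 CPM in parental replicate 1 (0.909 and 0.823 CPM). These regulators were picked from a list of 8 after their values were seen. The mesenchymal marker sum was 972 CPM in guide 2 replicate 2 and 2587 to 2619 CPM in the other guide 2 libraries. The part of these markers and regulators in the respiratory values was not tested.

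The SDHD promoter is shown in part because SDHD differed most between libraries of 1 genotype among the well-counted nuclear genes (within-genotype SD of log2 CPM 0.33). RefSeq promoters (GRCh38.p14, 250 bases before to 50 after the start) were matched for 18 of the 22 nuclear genes. The NRF1 core motif CGCATGCG, its own reverse complement, was found in 3 of the 18, SDHD, NDUFS6 and NDUFS7, and in 2.02% of 35116 promoters. The ETS motif CCGGAAGT, on either strand, was found in COX5B, NDUFS1 and SDHD (4.14% of all promoters), and the YY1 motif AAGATGGC, on either strand, in SDHB, UQCRC1, NDUFS4 and NDUFS7 (2.89%). The 3 motifs share no stretch that makes one a part of another. A match describes letters and not binding. The motifs were chosen after values were seen, and the NRF1 motif was shortened from a longer form that matched SDHD alone. Each member gene was given 1 promoter, while the shares count every promoter searched. The counts and shares are therefore no test of enrichment. The NRF1 match is in capitals in the 30 bases around it, chr11:112086753-112086782, plus strand.
SDHD: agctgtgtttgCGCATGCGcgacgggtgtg

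MT-ND6 departed from the other mitochondrial genes in guide 2 replicate 2. It had 502 CPM there and 253 and 357 CPM in replicates 1 and 3, while 9 of the 13 mitochondrial genes were below the mean of the other two libraries. Per 1000 CPM of the 12 genes on the heavy strand, MT-ND6 stood at 19.1 in that library and at 7.80 to 12.8 in the other 14. MT-ND2 was also high there, at 96.5 per 1000 (65.6 to 86.7 elsewhere), with its second highest value, 86.7, in parental replicate 1. MT-CO2 was at 107 per 1000 in guide 2 replicate 2 and 109 in parental replicate 1, the lowest pair of the series, against up to 139 elsewhere. MT-ND6 was not set apart in parental replicate 1, at 12.3 per 1000 against 12.6 in parental replicate 3. MT-ND2 thus had its 2 highest shares, and MT-CO2 its 2 lowest, in the libraries whose nuclear genes stood apart. MT-ND6 stood out high in guide 2 replicate 2 alone. Leaving MT-ND6 out of the sum moved no mean ratio by more than its SD. That check could move the ratio little, since MT-ND6 averaged 325 of 30990 CPM with the empty vector. It does not bear on MT-ND2 or MT-CO2. Whether reads of the opposite strand were counted for MT-ND6, and how poly(A) selection affected it, was not tested.

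**Figure D5:**
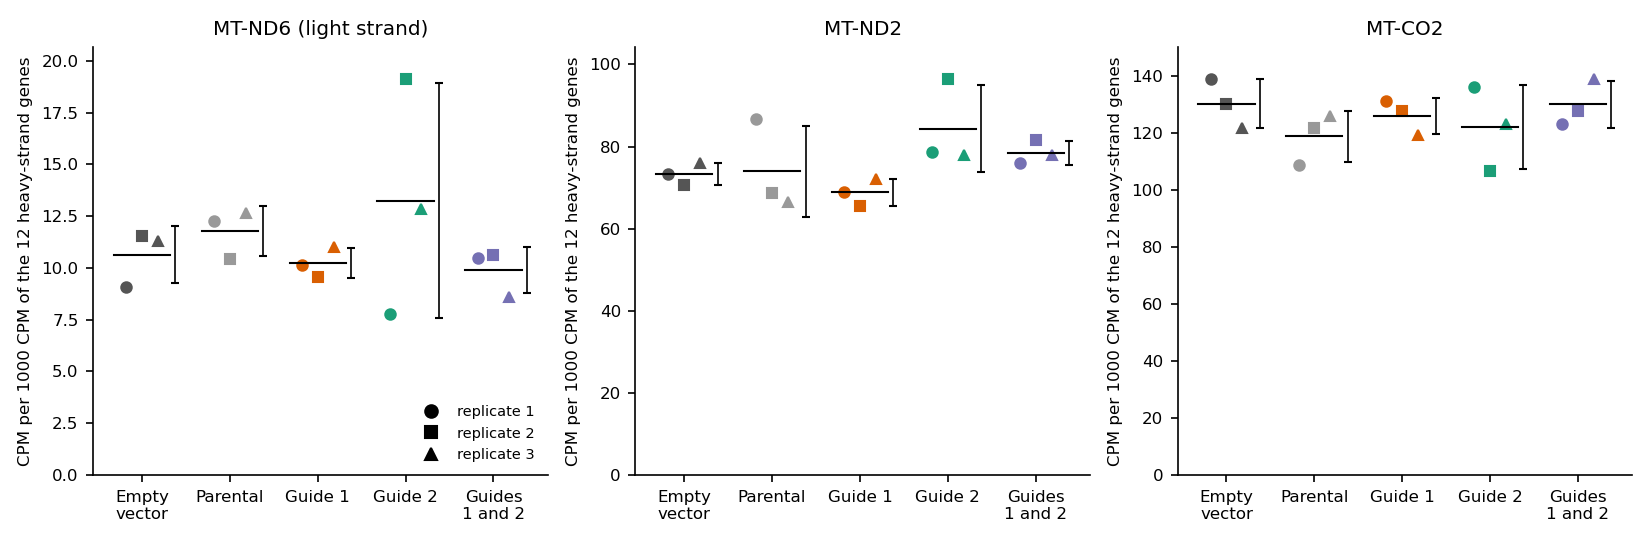
CPM of MT-ND6, MT-ND2 and MT-CO2 per 1000 CPM of the 12 heavy-strand mitochondrial genes, by genotype; points are libraries, horizontal lines are means and bars are 1 SD (n = 3). Guide 2 replicate 2 is the highest library for MT-ND6 (19.1) and MT-ND2 (96.5) and the lowest for MT-CO2 (107).

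The mitochondrial ribosomal RNAs, made from the same transcripts, also had their lowest means in parental cells. MT-RNR2 had 3805, 4550 and 4385 CPM in parental libraries and 8185, 8746 and 4633 CPM with guide 1, a log2 fold change of 0.78 ± 0.20 (edgeR adjusted p = 0.129). MT-RNR1 had 433, 854 and 1026 CPM in parental libraries and 1332, 1345 and 937 CPM with guide 1 (0.67 ± 0.25, edgeR adjusted p = 0.205). It had 934.9, 1080 and 904.5 CPM with the empty vector. For MT-RNR1 the parental libraries overlapped every other genotype, with parental replicate 1 far below the rest. For MT-RNR2 they overlapped no other genotype. As with the messages, guide 1 replicate 3 was the lowest of its genotype for both ribosomal RNAs.

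Other respiratory chain genes changed in few places, and the counts are to be read against the shares of all genes called: 4.37% in parental against empty-vector cells, 5.88% with guide 1 and 3.94% with guide 2 against the empty vector, and 1.51% in the averaged edited lines. Of 28 further complex I genes, 1 passed in any comparison with a control, NDUFB4, lower in parental than in empty-vector cells (log2 fold change -0.31, edgeR adjusted p = 0.0176). NDUFB1 had the next lowest p in that list (guide 1 over parental 0.50, edgeR adjusted p = 0.105). Of 6 tested among 10 further complex IV genes, COX7A2 fell (-0.34, edgeR adjusted p = 0.0164) and COX7C fell in parental against empty-vector cells, and COX7C over parental with guide 1 was at 0.38 (edgeR adjusted p = 0.0668). Of 6 further complex III genes and 18 nuclear ATP synthase genes none passed. Their lowest p were for UQCR10 (0.15, edgeR adjusted p = 0.122) and ATP5MC1 (0.17, edgeR adjusted p = 0.115), both over the averaged controls, and for UQCRQ (0.31, edgeR adjusted p = 0.172) and ATP5F1E (0.30, edgeR adjusted p = 0.158), both with guide 1 over parental. The median log2 fold change in parental against empty-vector cells was -0.09 over the further complex I genes, -0.07 for complex III, -0.16 for complex IV and -0.09 for ATP synthase.

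Among 45 assembly factors, TIMMDC1, a complex I assembly factor, fell in parental against empty-vector cells (-0.31, edgeR adjusted p = 0.0131) and with guide 2. COX17, a copper chaperone for complex IV, fell with guide 1 against the empty vector (-0.40, edgeR adjusted p = 0.0191), where COX20, a chaperone of MT-CO2, rose. COX20 had 44.0, 40.8 and 42.3 CPM with the empty vector, 45.9, 50.9 and 44.7 CPM in parental cells and 58.5, 60.1 and 50.6 CPM with guide 1, and it rose in the averaged edited lines over both controls. Of 34 genes for mitochondrial DNA upkeep and transcription, the polymerase subunit POLG fell in parental against empty-vector cells (-0.33, edgeR adjusted p = 0.0270), and its accessory subunit POLG2 was at 0.34 (edgeR adjusted p = 0.0833).

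Of 76 tested mitochondrial ribosomal proteins, 2 rose (MRPS27 at 0.29, edgeR adjusted p = 0.0238, and MRPS14) and 2 fell (MRPL14 at -0.36, edgeR adjusted p = 0.0112, and MRPS10) with guide 1 against the empty vector, and MRPL14 fell in parental cells too. Those 4 of 76 with guide 1 compare with 5.88% of all tested genes. None of 8 biogenesis regulators passed, with the lowest p for NRF1 (guide 1 over parental -0.41, edgeR adjusted p = 0.176) and GABPA (parental over empty vector 0.31, edgeR adjusted p = 0.147). Of the epithelial markers, KRT18 (-0.52), CDH1 and KRT17 fell with guide 1 against the empty vector. Of the mesenchymal markers COL1A1 fell (-1.42) and DCN rose in the averaged edited lines, and DCN over parental with guide 1 was at 3.00 (edgeR adjusted p = 0.0668). The endothelial gene KDR rose with guide 1 against the empty vector (1.86). With both guides over parental, CD14 was at 0.86 and PECAM1 at 0.43, and NEAT1 with guide 1 over parental was at 1.27, none of which passed.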

How the data were processed

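Poly(A) RNA of 15 MCF-10A libraries was sequenced. The authors deposited whole-number read counts per gene and a table of CPM, which are counts scaled to a library total of 1000000. The deposited CPM equal those recomputed from the counts within 4.91e-11. Trim Galore 0.6.0, STAR 2.7.8a and GRCh38 are named in the submitters' processing notes. The counting program, annotation and use of strand are not given in the sources used here, nor is the treatment of reads that match several places, which bears on genes with close copies.

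Of 60721 genes, 17457 passed filterByExpr by genotype. edgeR 4.0.16 (R 4.3.3) fitted 1 group-means model to the counts of all 15 libraries (quasi-likelihood, TMM scaling, 10 residual degrees of freedom, two-sided tests). P-values were adjusted by Benjamini-Hochberg over all tested genes, and a gene was called at an adjusted p under 0.05. Values per library are CPM, and values per kb are mean CPM divided by exon length in GENCODE release 29. The edgeR procedure was tested on simulated data. Of 200 genes changed 2-fold there, 52.5% were recovered, and 1.9% of the calls were false. Smaller changes were not simulated, so a gene that did not pass is not thereby shown to be unchanged. Alternatives used DESeq2 1.42.0 and limma 3.58.1 (voom with sample quality weights), RLE scaling, no filter, totals without mitochondrial genes, the compared groups alone, a replicate block and each library left out; leaving out 2 libraries together and the principal transcript lengths were chosen after seeing the data. Tables and plots were made with Python 3.11.15, pandas 2.3.3 and matplotlib 3.10.9.

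All 35 genes are named, with the 2 lowest-p genes of each other list and the highest nuclear copy of each mitochondrial gene, except for items that are not reported here; members with full values were picked after their values were seen. The members and lists were chosen with earlier results of these data known. NDUFV2 rests on 13 to 48 counts a library and every other gene of the 35 on at least 214. The promoter motifs were chosen after values were seen, and the NRF1 motif was shortened from a longer form that matched SDHD alone.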

Additional observations from a re-analysis of the deposited data

How the results depend on the processing

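Across RLE scaling, totals without mitochondrial genes, the compared groups alone and a replicate block, the counts of called genes stayed as reported. With voom and sample quality weights, mitochondrial and nuclear calls against the empty vector were 4 and 5 (guide 1), 0 and 4 (guide 2), 0 and 2 (both guides) and 2 and 11 (parental). Against parental they were 9 and 10 (guide 1), 2 and 8 (guide 2) and 2 and 10 (both guides), for the averaged edited lines 4 and 8, and between edited lines 5 (guide 1 against guide 2), 10 (both guides against guide 1) and 1 (both guides against guide 2). MT-ND6 in both guides against guide 2 changed sign there, from -0.31 to 0.0194, as did 74 of the 385 values (35 genes in 11 comparisons), and 97 of the 385 were called. The cause was not tested. DESeq2 called 2 nuclear genes in parental against empty vector (COX5A, COX5B), 1 mitochondrial gene in guide 1 over parental (MT-ND3), 1 nuclear gene in both guides over parental (COX5B), and 1 of each genome in the averaged lines (MT-ND3, SDHA). With no low-count filter, which tests more genes, 0 nuclear genes were called in parental against empty vector.

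Without guide 2 replicate 2 and parental replicate 1 together (added after seeing the data), 1 nuclear gene was called for guide 1 and 1 for guide 2 against the empty vector, 1 mitochondrial and 2 nuclear genes in parental against empty vector, 1 mitochondrial gene each for guide 1 and guide 2 over parental, 1 mitochondrial and 1 nuclear gene for both guides over parental, and 1 of each in the averaged lines. Leaving out 1 library at a time, nuclear calls ranged from 0 to 1 (guide 1 and guide 2 against empty vector, both guides over parental) and from 0 to 2 (parental against empty vector, guide 1 over parental), and mitochondrial calls from 0 to 4 (guide 1 over parental) and from 0 to 1 (averaged lines).

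Libraries with equal replicate numbers did not deviate together (30 pairs, mean r -0.05, from -0.75 to 0.28, against 0.03 for other numbers; 6 libraries correlated best with their own number). With the replicate number as a block, COX5A in parental against empty vector stayed called (-0.33, edgeR adjusted p = 0.0442) and no other gene of the 35 was called. Some differences of 3 standard errors or more did not pass (MT-ND3 and COX5B in the report), and counting error was largest for NDUFV2.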
